A study of Homo sapiens with 9 samples.

Results

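The BCL2 family was followed in HUCCT-1 cells, a human cholangiocarcinoma (bile duct cancer) line, after silencing of the Hippo pathway co-activators YAP and TAZ. It was taken as 10 genes, BCL2, BCL2L1, MCL1, BCL2L2, BAX, BAK1, BBC3, PMAIP1, BCL2L11 and BID, each matched by symbol to its single probe set, out of 37201 genes tested. RNA came from 3 conditions with 3 arrays each: combi-1 (siRNAs YAP1 and TAZ2 together), combi-2 (siRNAs YAP2 and TAZ3 together) and NTC (a scrambled, non-targeting siRNA). All 3 conditions carried siRNA at 40 nM in total and a lipid transfection reagent, and were harvested after 24 h, so no array shows untransfected cells. The TAZ3 siRNA is named in the labels only, and no source says whether replicate arrays stem from independent cultures, so the p-values measure the spread between these arrays alone.

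BCL2 proteins decide whether the outer mitochondrial membrane stays intact. The pro-survival members (BCL2, BCL2L1, MCL1, BCL2L2) hold back the pore-forming effectors BAX and BAK1, and the BH3-only members (BBC3, PMAIP1, BCL2L11, BID) bind the pro-survival proteins or act on the effectors directly. Once the membrane is permeable, cytochrome c leaves and caspases are activated. Many cancers of epithelial origin rely on MCL1 or BCL2L1, and in colon cancer cells YAP is known to act with β-catenin and TBX5 on BCL2L1.

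Both siRNA targets were low in every silenced array. The log2 signal of YAP1 was 6.84, 6.85 and 6.95 in combi-1, 6.86, 6.73 and 6.97 in combi-2, and 9.15, 9.06 and 9.08 in NTC. WWTR1, the gene of TAZ, had log2 signals of 6.97, 7.06 and 7.02 in combi-1, 6.95, 6.98 and 6.99 in combi-2, and 8.41, 8.30 and 8.38 in NTC. The combinations therefore lowered their targets to overlapping levels. As a rough check of the line, since probe sets differ in brightness, all 7 biliary epithelial markers were above the dimmest 40% of probe sets, as were 3 of 5 hepatocyte, 4 of 6 fibroblast and 2 of 4 leukocyte markers. ALB and CYP3A4 of hepatocytes and PTPRC and LYZ of leukocytes were among the dimmest, while SERPINA1 (log2 signal 9.31 to 9.59 over the 9 arrays) and CD68 (9.60 to 10.10) were not, so the marker lists alone do not set the line apart from these cell types.

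MCL1 was the 1 family member called lower in combi-2, at an adjusted p under 0.05. This pro-survival gene encodes a short-lived protein that holds BAK1 in check. Its log2 signal was 9.88, 9.96 and 10.11 in the combi-2 arrays, against 10.74, 10.73 and 10.64 in the NTC arrays. All combi-2 arrays lay below all NTC arrays, with replicate 3 the highest of the combi-2 arrays. The log2 difference of combi-2 from NTC was −0.72 (95% confidence interval −0.88 to −0.56, adjusted p = 0.00353, limma), a signal 0.607 times that of NTC. By p-value it ranked 36 among the 37201 genes in that comparison. In the combi-1 arrays the log2 signal of MCL1 was 10.72, 10.77 and 10.80, which overlapped the NTC arrays, and the log2 difference from NTC was 0.06 (interval −0.10 to 0.22, adjusted p = 0.702).

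The drop in MCL1 thus differed between the 2 siRNA combinations, and this was tested directly. The log2 difference of combi-2 minus combi-1 was −0.78 (interval −0.93 to −0.62, adjusted p = 0.00247, limma), a signal 0.583 times that of combi-1, with no overlap between the arrays. YAP1 differed by −0.03 (adjusted p = 0.94) and WWTR1 by −0.04 (adjusted p = 0.845) in the same comparison. Each combination has its own siRNA for each target and no siRNA was arrayed alone, so combination and siRNA sequence cannot be told apart. The probe set is a value per gene, so the long and short splice forms of MCL1, which act in opposite directions, are not told apart.

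**Figure D1:**
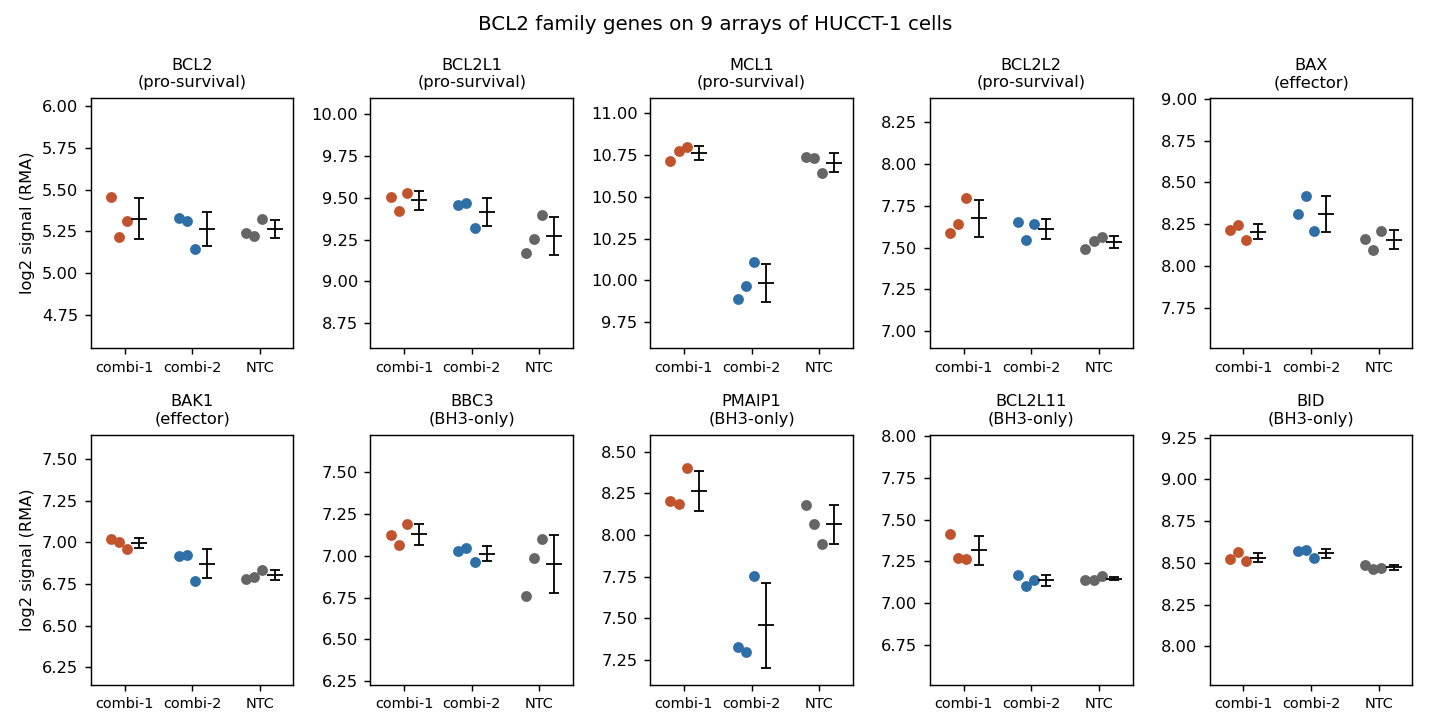
The log2 signal (RMA) of each of the 10 genes on the vertical axis, by condition (combi-1, combi-2, NTC), 1 point per array, with the mean and SD of 3 arrays as a bar beside the points; all panels span the same number of log2 units, from a different start. MCL1 and PMAIP1 are the 2 panels in which combi-2 lies well below combi-1 and NTC.

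PMAIP1 was also low in the combi-2 arrays. It encodes NOXA, a BH3-only protein that binds MCL1 in preference to the other pro-survival members and is known to be induced by p53, by interferon and by cell stress. Its log2 signal was 7.33, 7.30 and 7.75 in combi-2, against 8.18, 8.07 and 7.95 in NTC. The groups did not overlap, but combi-2 replicate 3 lay much nearer to NTC than the other 2 combi-2 arrays did. The log2 difference was −0.60 (interval −0.90 to −0.31, adjusted p = 0.0931, limma) and did not pass the threshold of 0.05. In combi-1 the log2 signal of PMAIP1 was 8.21, 8.19 and 8.40, above every NTC array, with a log2 difference of 0.20 (interval −0.09 to 0.49, adjusted p = 0.473).

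Between the combinations, PMAIP1 differed by −0.81 on the log2 scale (combi-2 minus combi-1, interval −1.10 to −0.51), which is 0.572 times the combi-1 signal. Its adjusted p was 0.0519, just above the threshold. Without combi-2 replicate 3, which lay at the low end of the second principal component of all genes (−27.6, with −15.5 for replicate 2 and −2.23 for replicate 1), PMAIP1 passed in both comparisons: −0.75 from NTC (adjusted p = 0.0196) and −0.95 from combi-1 (adjusted p = 0.0115). It also passed when protein-coding genes alone were tested (adjusted p = 0.0195 against NTC and 0.00638 against combi-1). With all arrays and genes kept, PMAIP1 passed against combi-1 under median centring, rounding to 2 decimals, a trended robust variance and array weights. Against NTC it passed with array weights. The call for PMAIP1 thus turned on 1 array, on the set of genes tested and on other processing choices, while MCL1 passed in all of these fits.

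RefSeq (GRCh38.p14) gave promoters, 250 bases before to 50 after a gene start, for 8 of the 10 members, 13 promoters in all; MCL1 and BCL2L2 had none in the table used. They were searched on both strands for the TEAD motif GGAATG, through which YAP and TAZ reach DNA, the CREB core TGACG, the E-box CACGTG, the interferon-stimulated element (TTTC, any 2 bases, TTTC) and CCAAT; of 35116 promoters 14%, 24.6%, 7.26%, 3.57% and 34.6% held them in that order. BBC3 was the only member with the TEAD letters, at position 43 after the start, beside 2 overlapping matches to the interferon element. The PMAIP1 promoter held the CREB core once, 55 bases before the start, and none of the other 4 motifs. The 250 bases before the start are shown for these 2 p53-regulated BH3-only genes, which differed in combi-2. PMAIP1 lay below all NTC arrays there, though it was not called. BBC3 overlapped NTC, although it lay below the combi-1 arrays. No p53 element was among the motifs searched. Capitals mark matches to any of the 5 motifs, read 5′ to 3′ on the gene's strand. The PMAIP1 stretch is on the plus strand at chr18:59899746-59899995. The BBC3 stretch is on the minus strand at chr19:47232668-47232917, where the capitals are an E-box and a CCAAT on the other strand. The BBC3 start used lies inside the gene's annotated span (chr19:47220824-47232860). Most of the BBC3 stretch is therefore within the gene, whereas that of PMAIP1 lies just before the gene, so the 2 are not alike in place.
PMAIP1: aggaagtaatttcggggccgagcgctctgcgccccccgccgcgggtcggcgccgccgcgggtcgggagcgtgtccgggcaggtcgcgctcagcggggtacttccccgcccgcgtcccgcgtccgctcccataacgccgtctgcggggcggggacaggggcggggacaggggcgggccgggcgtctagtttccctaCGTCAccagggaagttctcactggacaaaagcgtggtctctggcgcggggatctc
BBC3: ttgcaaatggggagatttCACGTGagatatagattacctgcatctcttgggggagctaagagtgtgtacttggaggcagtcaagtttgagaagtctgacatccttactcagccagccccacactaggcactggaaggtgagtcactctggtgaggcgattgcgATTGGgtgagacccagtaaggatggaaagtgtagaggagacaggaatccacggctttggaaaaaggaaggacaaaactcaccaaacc

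A match to these letters is a description of the window and not a measured binding site, and their absence says nothing of the factor.

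Of the other BH3-only members, BBC3 (PUMA), the p53-induced protein that binds all pro-survival members, did not pass. Its log2 signal was 7.13, 7.07 and 7.19 in combi-1, 7.03, 7.05 and 6.96 in combi-2, and 6.76, 6.99 and 7.10 in NTC. The NTC arrays spread so widely that they overlapped both combinations. BCL2L11, the gene of BIM, which neutralises all pro-survival proteins and is transcribed in response to growth factor loss, had log2 signals of 7.42, 7.27 and 7.26 in combi-1, 7.17, 7.10 and 7.14 in combi-2, and 7.14, 7.14 and 7.16 in NTC. Each combi-1 array of BCL2L11 lay above each NTC and each combi-2 array. Its log2 difference was 0.17 for combi-1 minus NTC (interval 0.04 to 0.30, adjusted p = 0.214), and −0.18 for combi-2 minus combi-1 (interval −0.31 to −0.05, adjusted p = 0.379). BID, which caspase-8 cleaves to carry death receptor signals to mitochondria, lay between 8.46 and 8.58 in all 9 arrays, with log2 differences of 0.06 for combi-1 and 0.09 for combi-2 against NTC (adjusted p = 0.565 and 0.482).

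Among the pro-survival members other than MCL1, BCL2L1 (BCL-XL) had log2 signals of 9.51, 9.42 and 9.53 in combi-1, 9.46, 9.47 and 9.32 in combi-2, and 9.17, 9.25 and 9.40 in NTC. The combi-1 arrays all lay above the NTC arrays, and combi-2 overlapped both. The log2 difference of BCL2L1 was 0.21 with combi-1 (interval 0.04 to 0.38, adjusted p = 0.227) and 0.14 with combi-2 (interval −0.03 to 0.31, adjusted p = 0.456). BCL2L2, the gene of BCL-W, whose locus is also covered by a read-through transcript with PABPN1, differed from NTC by 0.14 (adjusted p = 0.353) with combi-1 and by 0.08 (adjusted p = 0.657) with combi-2. BCL2 itself was dim, with log2 signals of 5.14 to 5.46, and was the only member among the dimmest 40% of probe sets. Its log2 difference from NTC was 0.06 with combi-1 (interval −0.12 to 0.25) and 0.00 with combi-2 (interval −0.18 to 0.18).

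Neither effector passed the test in any comparison. BAK1, which is present on mitochondria in resting cells, had log2 signals of 6.96 to 7.02 in combi-1, 6.77 to 6.93 in combi-2 and 6.78 to 6.84 in NTC. The combi-1 arrays lay above the arrays of both other conditions, with a log2 difference from NTC of 0.19 (interval 0.06 to 0.33, adjusted p = 0.176). BAX, which moves from the cytosol to mitochondria on activation, differed from NTC by 0.05 in combi-1 (adjusted p = 0.753) and by 0.16 in combi-2 (interval 0.00 to 0.31, adjusted p = 0.37), with overlapping arrays in both.

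**Figure D2:**
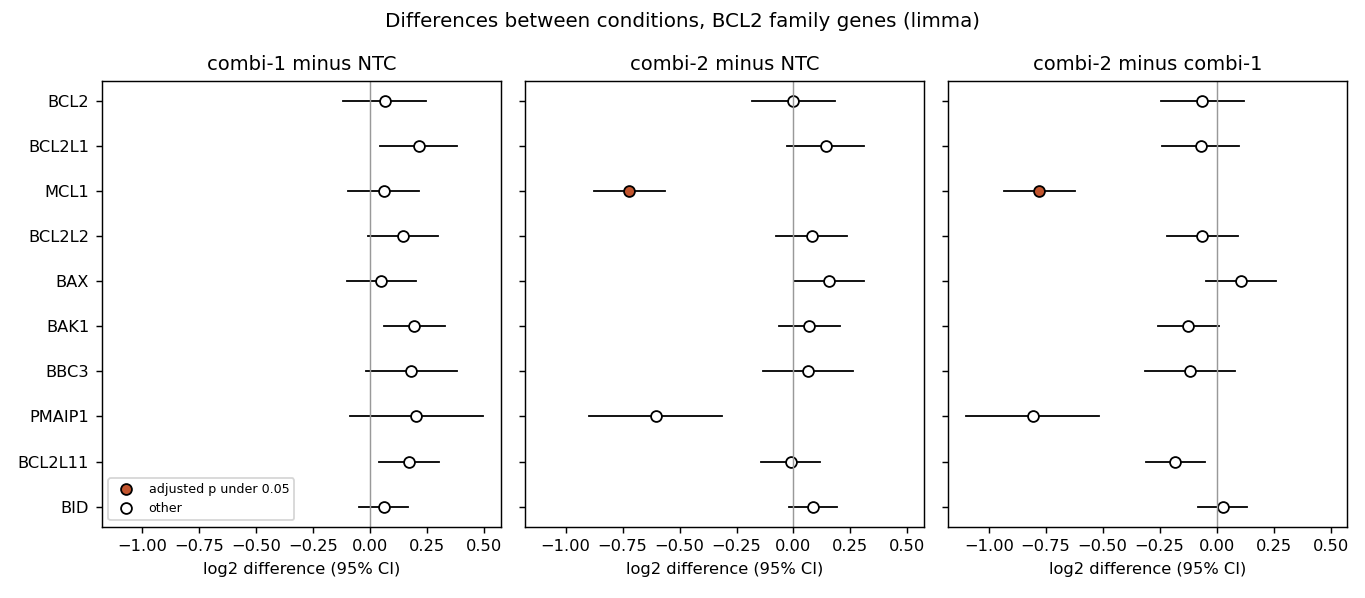
The log2 difference (horizontal axis) with its 95% confidence interval for each gene, from limma, in the 3 comparisons; filled points have an adjusted p under 0.05. MCL1 is filled in both comparisons that hold combi-2, at −0.72 and −0.78, and no gene is filled in combi-1 minus NTC.

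Counted over the family, no member of 10 was called in combi-1 minus NTC, where 1.51% of all genes were (0.68% higher, 0.833% lower). At an unadjusted p under 0.05, 3 members (BCL2L1, BAK1, BCL2L11) were higher, against 15.7% of all genes in either direction and 8.02% higher. In 6 members (BCL2L1, BCL2L2, BAK1, PMAIP1, BCL2L11, BID) every combi-1 array lay above every NTC array, a pattern seen in 15.8% of all genes and in 22.5% of protein-coding genes. All 10 members had a positive log2 difference, against 54.7% of all genes and 59.4% of protein-coding genes. Their median was 0.16, against 0.02 for all genes and 0.03 for protein-coding genes. The members share the same 9 arrays, so these counts describe them and are not independent of each other.

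In combi-2 minus NTC, 1 member was called and it was lower, MCL1, where 0.75% of all genes were called (0.304% higher, 0.446% lower). At an unadjusted p under 0.05 stood BAX (higher), MCL1 and PMAIP1 (both lower), 3 of 10, against 13.3% of all genes. The arrays of the 2 groups did not overlap in 3 members, BID (higher), MCL1 and PMAIP1 (both lower), against 18.1% of all genes and 22.8% of protein-coding genes. Of the 10 log2 differences 6 were positive, against 54.8% of all genes and 61.3% of protein-coding genes. The comparisons with NTC use the same 3 NTC arrays, so their values are not independent.

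In combi-2 minus combi-1, MCL1 was again the single member called, where 0.333% of all genes were (0.0968% higher, 0.237% lower). At an unadjusted p under 0.05, 3 members were lower (MCL1, PMAIP1, BCL2L11), against 8.87% of all genes in either direction and 3.78% lower. In 5 members (MCL1, BAK1, BBC3, PMAIP1, BCL2L11) every combi-2 array lay below every combi-1 array, against 6.5% of all genes and 7.67% of protein-coding genes. Only BAX and BID had a positive difference, where 49.1% of all genes did. By role, the median log2 difference was −0.07 over the 4 pro-survival members, −0.01 over the 2 effectors and −0.15 over the 4 BH3-only members. It was −0.002 over all genes and −0.00065 over protein-coding genes. The role medians rest on few genes that differ: MCL1 was at −0.78, BAX at 0.11 and BAK1 at −0.12.

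**Figure D3:**
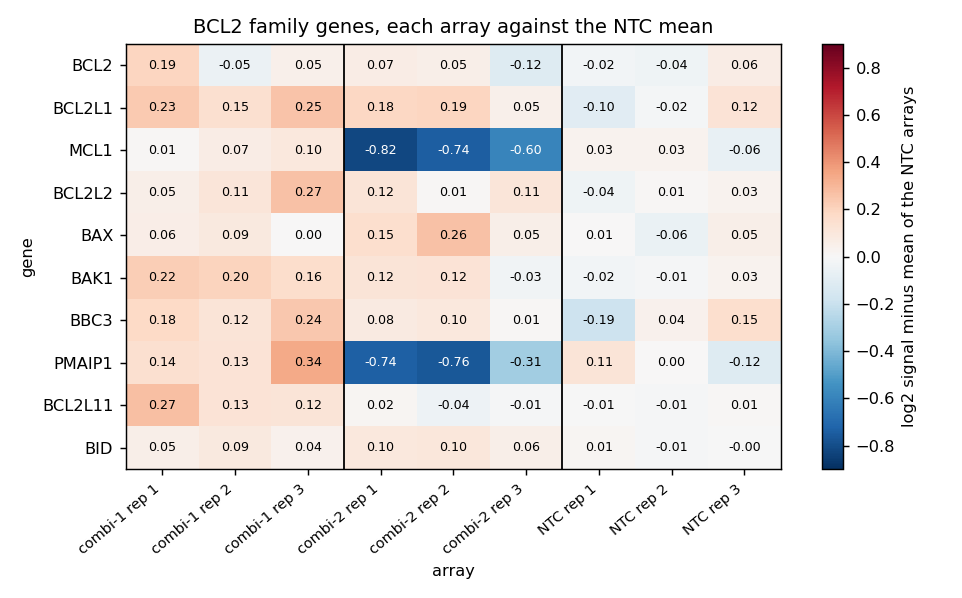
Each array (columns) against the mean of the 3 NTC arrays for each gene (rows), as a log2 difference given in the cell and by colour, blue for lower and red for higher. The MCL1 and PMAIP1 rows are blue in all 3 combi-2 arrays, least so in replicate 3 (−0.60 and −0.31).

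Array by array, combi-2 replicate 3 was the highest of its group for MCL1 and PMAIP1 and the lowest for 6 other members (BCL2, BCL2L1, BAX, BAK1, BBC3, BID). NTC replicate 3 showed the opposite layout, lowest of its group for MCL1 and PMAIP1 and highest for 7 others. In each group 1 array was the highest for both genes (combi-1 replicate 3, combi-2 replicate 3 and NTC replicate 1). The deposited NTC replicate 1 also differs in form, with 29641 distinct values against 7528 in each other array; rounding all arrays alike left the log2 difference of MCL1 at a called value in both comparisons.

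The genes whose signal followed MCL1 most closely over the 9 arrays, by Pearson's r among 18214 protein-coding genes, were CDV3 (r = 0.99), LTAP1 (r = 0.98) and MED1 (r = 0.97), a subunit of the Mediator complex. Once the group means were taken out, r was 0.966 for CDV3, −0.04 for LTAP1 and 0.489 for MED1. LTAP1 had log2 signals of 8.90, 8.98 and 8.91 in combi-2, against 9.78, 9.71 and 9.72 in NTC, a log2 difference of −0.80 (adjusted p = 0.000545). CDV3 varied on a much smaller scale, at 9.88, 9.90 and 9.93 in combi-2 against 10.00, 10.01 and 9.98 in NTC, and did not pass (log2 difference −0.10, adjusted p = 0.422). MED1 did not pass either, with a log2 difference of −0.12 (adjusted p = 0.322). Nothing on shared control follows from such likeness over 9 arrays.

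Among genes that act on the BCL2 proteins, a call was made in 1 case. Of 9 genes for mitochondrial channels and for the turnover of BCL2 proteins, BTRC was called, in 1 of the 3 comparisons, combi-2 minus combi-1. It encodes β-TrCP, a substrate receptor of a ubiquitin ligase that takes MCL1 and BIM among its substrates. BTRC had log2 signals of 7.88, 7.95 and 7.98 in combi-2, 7.57, 7.63 and 7.46 in combi-1, and 7.71, 7.70 and 7.73 in NTC, so combi-2 lay above and combi-1 below the NTC arrays. The log2 difference of combi-2 from combi-1 was 0.38 (adjusted p = 0.0462), and against NTC it was 0.22 for combi-2 (adjusted p = 0.173) and −0.16 for combi-1 (adjusted p = 0.247). MARCHF5, a mitochondrial ubiquitin ligase that acts on MCL1 and NOXA, differed from NTC by 0.25 with combi-2 (adjusted p = 0.138) and by 0.19 with combi-1 (adjusted p = 0.195). Both ligases act on proteins, while the arrays measured RNA. A link to the MCL1 or PMAIP1 signal was not tested.

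None of the 13 other BCL2-related genes was called in any of the 3 comparisons. The smallest p-values belonged to BMF, a BH3-only gene, with a log2 difference of 0.22 for combi-2 minus NTC (adjusted p = 0.2), and BCL2L14, with 0.26 for combi-1 minus NTC (adjusted p = 0.188). Downstream of the mitochondria, none of 11 genes of the apoptosome, the caspases and their inhibitors was called. BIRC5, the gene of survivin and a known YAP target in colon cancer cells, came nearest, at −0.37 in combi-1 (adjusted p = 0.0578) and −0.25 in combi-2 (adjusted p = 0.226) against NTC. Upstream of BID, none of 4 genes of the caspase-8 arm was called, with CFLAR, the caspase-8 inhibitor c-FLIP, at 0.21 in combi-1 against NTC (adjusted p = 0.102).

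PMAIP1 and BBC3 are p53 targets, and neither they nor any of 22 other genes of the p53 response were called in any comparison. CCNG1 (cyclin G1) had the smallest p of that list, with a log2 difference of 0.35 for combi-2 minus NTC (adjusted p = 0.155). Of 12 genes of the integrated stress and unfolded protein responses, DDIT4, an inhibitor of mTORC1, rose by 0.67 in combi-1 (adjusted p = 0.0079) and by 0.60 in combi-2 (adjusted p = 0.0236) against NTC. ERN1, the endoplasmic reticulum stress sensor IRE1, rose by 0.53 in combi-1 (adjusted p = 0.00383), with a log2 difference of 0.16 in combi-2 (adjusted p = 0.309) and a difference of combi-2 minus combi-1 that did not pass (−0.37, adjusted p = 0.0543). The lists were drawn up with earlier results of these arrays known.

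A further pair of lists held many calls. Of 19 type I interferon response genes 19 rose in combi-1 (median log2 difference 1.58) and 2 in combi-2 (IFI44 by 0.57, DDX60 by 0.62; median 0.46), and 15 were lower in combi-2 than in combi-1 (median −1.19). PMAIP1, which interferon can induce, had log2 differences from NTC of 0.20 in combi-1 and −0.60 in combi-2, neither called, and no interferon gene of the list was called lower than NTC. The part of the interferon response in the family's values was not tested. Known YAP/TAZ targets fell in both, 6 of 12 in combi-1 (median −0.36) and 7 of 12 in combi-2 (median −0.39), with ANKRD1 at −2.15 and −2.56. CCN1 was called between the combinations (−0.51, adjusted p = 0.0211), lower in combi-2.

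**Figure D4:**
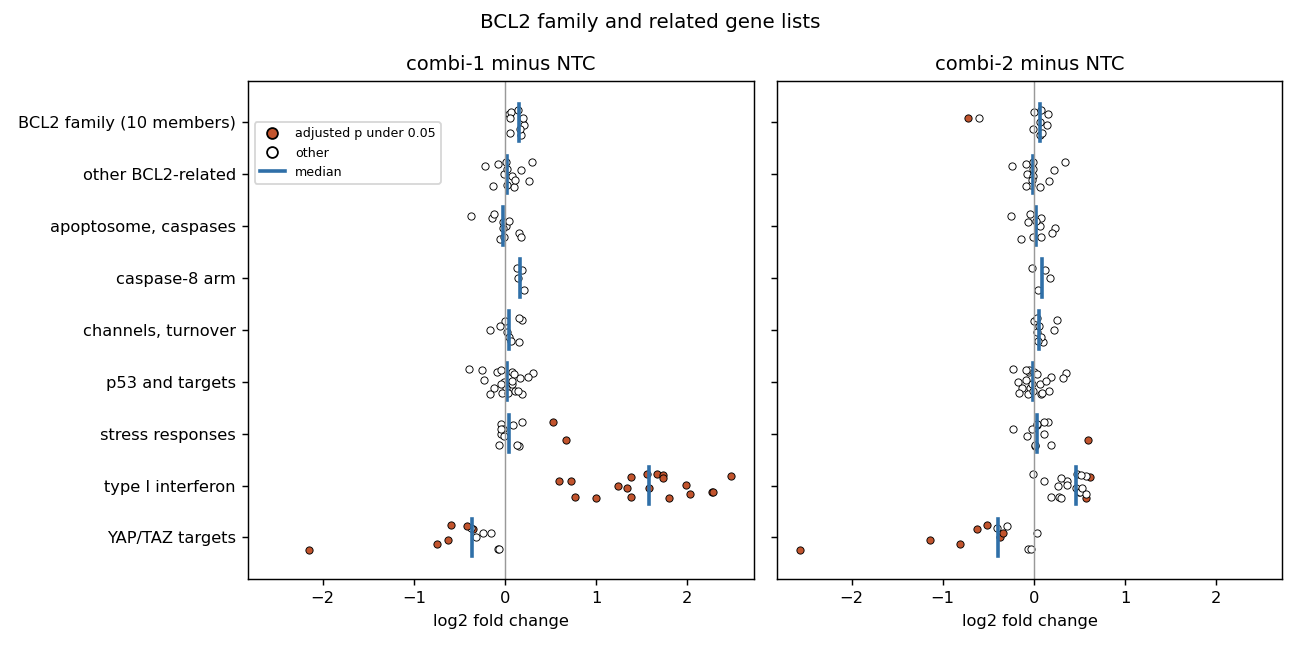
The log2 difference from NTC (horizontal axis) of every measured gene in the BCL2 family and in 8 related lists (rows), for combi-1 and combi-2; each point is a gene, filled where its adjusted p is under 0.05, and the bar is the list's median. The family sits near 0 apart from MCL1 and PMAIP1 in combi-2, while the interferon list lies around 1.58 in combi-1 and 0.46 in combi-2.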

How the data were processed

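RNA of 9 HUCCT-1 samples was hybridised to Clariom D arrays. The deposited values are log2 signals, 1 per gene, which the authors obtained by RMA background correction and a normalization whose kind is not given in the sources used here, with a custom probe annotation, CDF version 22. RMA shrinks differences of dim genes and allows no comparison between probe sets. Of 39334 probe sets, 37201 with 1 gene symbol were tested and 2133 were left out. All 9 arrays entered 1 model of 3 group means in limma 3.58.1 (R 4.3.3), and genes were called at a Benjamini-Hochberg adjusted p under 0.05 across the whole table. The procedure was run on simulated, independent normal values. Recovery was required there only for shifts larger than any member's difference, so the check does not vouch for smaller ones. Array medians ran from 5.83 to 5.84; the 3 arrays per condition limit the precision.

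The members and gene lists were chosen with earlier results of these data known. Named were all members, the siRNA targets, per list the called genes (at most 4, otherwise the 2 of smallest p; some left unnamed), and the 3 protein-coding genes most like the called member. MARCHF5, PTPRC, LYZ, SERPINA1 and IFI44 were named after their values were seen. Deviations from the group means correlated at −0.18 to 0.05 between arrays of the same replicate number. Pairs of different number were not computed, so whether the numbers pair arrays was not settled. Alternatives covered normalization, filters, variance models, a replicate block, array weights and leaving out arrays. Quantile normalization was a weak check, since all arrays but NTC replicate 1 already shared their minimum, maximum and count of distinct values.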

Additional observations from a re-analysis of the deposited data

Results flagged for a closer look

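The log2 difference of MCL1 between the silenced groups, combi-2 minus combi-1, was −0.78, and a test of that difference itself passed, although both groups had YAP1 and WWTR1 lowered to overlapping signals. With 3 arrays per group, single arrays were not tested for distance from their group.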

How the results depend on the processing

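MCL1 was called lower in combi-2 under each alternative run, against NTC (log2 −0.78 to −0.67, adjusted p 0.000207 to 0.0373) and against combi-1 (adjusted p 0.000121 to 0.0253). No member was called in combi-1 minus NTC under any. The count of members called became 2, by the addition of PMAIP1, in combi-2 minus NTC without the dimmest 40% of probe sets, with protein-coding genes only and with array weights; leaving out single arrays gave 1 to 2, with 2 without combi-2 replicate 3. In combi-2 minus combi-1 it became 2 with median centring, without the dimmest 40%, with protein-coding genes only, with a trended robust variance, with array weights and with rounding to 2 decimals, and leaving out single arrays gave 1 to 2, with 2 again without combi-2 replicate 3. The dim-probe and protein-coding settings adjust p over fewer genes by construction; for the others the cause was not tested. The adjusted p of PMAIP1 ran from 0.0195 to 0.285 against NTC and from 0.00638 to 0.232 against combi-1. The replicate block, by numbers for which pairing was not settled, gave 0, 1 and 1 members called in the 3 comparisons. It gave 206, 48 and 42 genes called, against 563, 279 and 124 without it. Over all alternatives the genes called ran from 196 to 1095 in combi-1 minus NTC, 48 to 733 in combi-2 minus NTC and 42 to 340 in combi-2 minus combi-1. BCL2 had no value without the dimmest probe sets. No member's call was lost or turned.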
